A study of Mus musculus with 13 samples.

Results

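The genes described here are the Notch receptors and a set of their targets and effectors in EPLMs of mice that overexpress OBF1. The 10 genes are Notch1, Notch2, Notch3, Notch4, Hes1, Hey1, Dtx1, Nrarp, Rbpj and Lfng, out of 18193 genes with a probe set of their own on the array, and all 20 probe sets that the platform annotation assigns to 1 of them alone were taken. EPLMs are early bone marrow progenitors with lymphoid and myeloid potential, sorted by a set of surface markers that includes B220+, c-kit+, CD93+ and NK1.1-. The comparison held 3 WT mice and 3 BCS mice, all 7 weeks old and of the strain B6CF1 x C57BL/6, with 1 Affymetrix mouse GeneChip per animal. BCS mice carry a human OBF1 cDNA with an HA tag, driven by an Ig heavy chain variable region promoter and the Eμ enhancer, which is active in B lineage cells from an early stage and can also be active in T cells. The WT mice were littermates without the transgene, and which of the transgenic lines gave the arrays is not given in the sources used here. The question was which genes change when OBF1 is expressed from a transgene at this stage.

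Notch receptors are cell surface proteins that are cut after a ligand on a neighboring cell binds, first by an ADAM protease and then by γ-secretase. The freed intracellular domain enters the nucleus, joins the DNA-binding protein RBPJ and turns on targets such as Hes1, Hey1, Dtx1 and Nrarp. In lymphoid progenitors Notch1 signals direct cells to the T lineage and away from the B lineage, and Notch2 is needed for marginal zone B cells.

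In EPLMs of BCS mice the receptor genes that passed the test were lower and the target genes that passed it were higher. Notch2 fell by 1.98-fold, Notch1 fell by 1.43-fold and the dim Notch3 signal fell as well, while the target Nrarp rose by 3.04-fold and Hes1 by 1.81-fold. Rbpj, the factor through which the receptors act, did not pass the test on any of its 3 probe sets. Of the 20 probe sets, 3 rose, 3 fell and 14 did not pass. Across all 45037 probe sets tested, 2.24% were called higher and 3.25% lower, 5.49% in all, and the median log2 change was 0.01 for the 20 probe sets and 0.01 for all. A probe set is called here at a Benjamini-Hochberg adjusted p under 0.05 from limma, fitted to log2 of the GCRMA intensity plus 1 on the 6 arrays. GCRMA intensity is the background-corrected and normalized brightness of a probe set, and each of these arrays has a median of 20.0, so intensities near that value carry little signal over background. By that measure 9 of the 20 probe sets lay above the array median in every mouse, 7 lay at or under it in every mouse and 4 lay above it in some mice.

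Of the called genes, Nrarp is shown first by its promoter sequence, because it had the largest change and because OBF1 acts on the octamer motif ATGCAAAT through Oct1 and Oct2. The sequence runs from 250 bases before the start of the gene to 50 bases after it and comes from RefSeq (build GRCm38.p6, chr2:25180508-25180807, plus strand). Capitals mark the octamer. The Hes5 window (chr4:154960673-154960972, plus strand) is shown beside it, because this further HES gene also rose and its window holds the letters TGGGAA, the core bound by RBPJ, which the capitals mark on either strand.
Nrarp: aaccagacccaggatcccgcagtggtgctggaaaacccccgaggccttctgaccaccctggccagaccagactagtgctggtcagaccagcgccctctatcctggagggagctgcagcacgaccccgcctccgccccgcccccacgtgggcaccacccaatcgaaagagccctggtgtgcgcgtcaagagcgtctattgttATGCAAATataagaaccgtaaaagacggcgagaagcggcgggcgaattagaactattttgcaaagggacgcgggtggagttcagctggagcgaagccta
Hes5: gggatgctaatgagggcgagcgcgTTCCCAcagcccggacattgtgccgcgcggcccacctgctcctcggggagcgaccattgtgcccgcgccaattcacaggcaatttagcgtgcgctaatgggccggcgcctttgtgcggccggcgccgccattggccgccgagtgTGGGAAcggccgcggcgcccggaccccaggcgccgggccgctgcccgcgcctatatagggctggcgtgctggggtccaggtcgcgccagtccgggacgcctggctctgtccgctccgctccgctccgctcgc

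The octamer of the Nrarp window begins 49 bases before the start of the gene, in the orientation of the gene. Of 32851 RefSeq promoter windows of this length, 1.74% hold the octamer on either strand. Of the 10 genes, 8 have a window in the table, and Nrarp is the member whose window holds an octamer. Notch1, Notch2 and Notch3 hold neither the octamer nor TGGGAA in theirs, nor does Notch4 or Dtx1. The letters TGGGAA occur in 25.6% of all windows and in those of Rbpj and Lfng, but not in that of Nrarp. Hes1 and Hey1 have no window and could not be searched. In the Hes5 window these letters stand on the reverse strand 226 bases and on the forward strand 82 bases before the start. Of the called pathway genes that fell, Dtx2 holds them as well, on the reverse strand 23 bases before the start. The windows of Hes6 hold none, and Dtx4 has no window. The palindrome CACGTG, an E box searched as well and present in 7.15% of windows, begins 108 bases before the start of Nrarp and 112 bases before that of Lfng, where it overlaps a TGGGAA match. As a description of the whole array, 24 of 243 measured genes with an octamer in a window were called higher (9.88%) and 7 lower (2.88%), against 3.24% and 4.59% of the 14452 measured genes with a window. What lies behind the difference in these shares was not tested. A match of letters does not show that a factor binds there.

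Notch2 showed the clearest change among the receptors. Its bright probe set 1455556_at had intensities of 6020, 5964 and 6427 in the WT mice and 3661, 2567 and 3178 in the BCS mice. Every BCS mouse thus lay below every WT mouse, with means of 6137 ± 253 (SD, n = 3) and 3135 ± 548 (SD, n = 3). The log2 change was -0.98 (SE, standard error, 0.13; 95% interval -1.27 to -0.70, limma, adjusted p = 0.00234), and it stayed called without any one of the 6 arrays. The other Notch2 probe set, 1451889_at, lay at 9.81 to 12.1 in all mice, under the array median, and cannot show a change. In bulk RNA of sorted cells, fewer cells of a type and less RNA per cell cannot be told apart.

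Notch1, the receptor of T lineage choice, is read by a bright probe set, 1418634_at, and a dimmer one, 1418633_at. On the bright one the WT mice had intensities of 7737, 7652 and 7353 and the BCS mice 6606, 4705 and 4787. BCS replicate 1 stood between the other 2 BCS mice and the WT mice. The log2 change was -0.52 (SE 0.12, limma, adjusted p = 0.0481), close to the threshold, and this call was lost without any of the WT replicates 1, 2 and 3 and without BCS replicate 2 or 3 (limma, adjusted p from 0.116 to 0.159). Without BCS replicate 1 it was firmer, with a log2 change of -0.68 and an adjusted p of 0.00232 from limma. On the dimmer probe set the WT mice had 212, 167 and 145 and the BCS mice 116, 92.8 and 78.1, again without overlap. Its log2 change of -0.86 (SE 0.22) just missed the threshold (limma, adjusted p = 0.0589), and it passed without BCS replicate 1 (limma, adjusted p = 0.0498).

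Notch3 and Notch4 were dim in EPLMs. Notch3 has a role in developing thymocytes, and Notch4 is known mainly from endothelial cells. The Notch3 probe set 1421965_s_at, whose suffix marks probes shared by several transcripts, had intensities of 19.1, 30.0 and 25.1 in the WT mice and 12.1, 14.2 and 14.1 in the BCS mice. The signal thus lay around the array median in WT mice and under it in all BCS mice. The log2 change was -0.81 (SE 0.17, limma, adjusted p = 0.026). The call was lost without WT replicate 2 or 3 and without any of the BCS replicates (limma, adjusted p from 0.0609 to 0.0847). With intensities under the array median set to it, the log2 change shrank to -0.30 (limma, adjusted p = 0.554). No member probe set, bright or dim, was called with that floor. The second Notch3 probe set, 1421964_at, and all 3 Notch4 probe sets stayed between 6.90 and 17.3 in every mouse, under the array median, so neither presence nor change of these transcripts can be read from them.

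**Figure D1:**
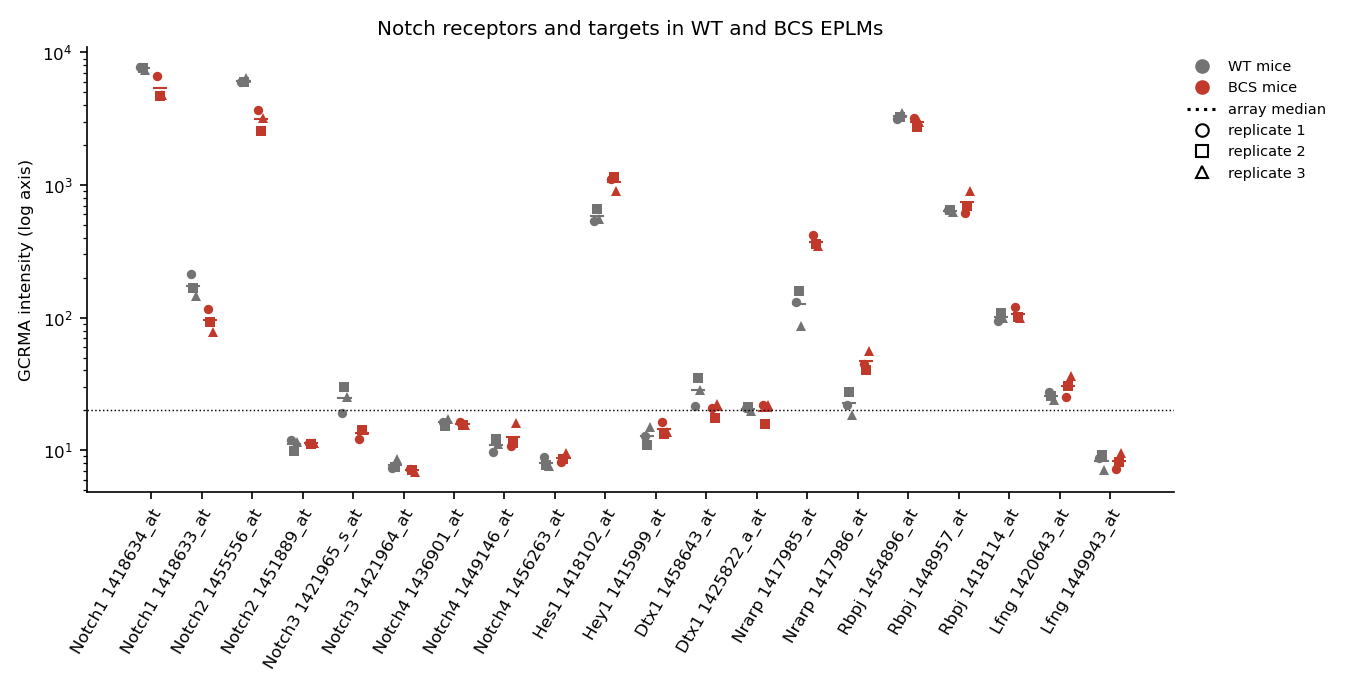
GCRMA intensity (vertical log axis) of the 20 probe sets of the 10 genes, each point 1 mouse (3 WT in gray, 3 BCS in red; circles, squares and triangles are replicates 1, 2 and 3), short bars the group means and the dotted line the array median of 20.0. The BCS mice lie below the WT mice for bright Notch1 and Notch2 probe sets and above them for Hes1 and both Nrarp probe sets.

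Hes1, which encodes a basic helix-loop-helix repressor and is the best known target of Notch signals, rose. Its only probe set, 1418102_at, had intensities of 536, 660 and 550 in the WT mice and 1120, 1142 and 906 in the BCS mice. The lowest BCS mouse, replicate 3, lay above the highest WT mouse, and the means were 582 ± 68.0 (SD, n = 3) and 1056 ± 130 (SD, n = 3). The log2 change was 0.86 (SE 0.15, 95% interval 0.51 to 1.21, limma, adjusted p = 0.0136). It no longer passed when WT replicate 3 (limma, adjusted p = 0.0578) or BCS replicate 2 (limma, adjusted p = 0.0623) was left out, with log2 changes between 0.80 and 0.96 whichever array was left out. The study had picked Hes1 from these same samples, so its direction here is not independent evidence.

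Nrarp, a Notch target that encodes an ankyrin repeat protein and feeds back on the receptor complex as an inhibitor, had the largest change of the 10 genes. Its brighter probe set, 1417985_at, had intensities of 131, 159 and 86.9 in the WT mice and 421, 356 and 347 in the BCS mice. The lowest BCS mouse thus lay far above the highest WT mouse. The means were 126 ± 36.6 (SD, n = 3) and 375 ± 40.1 (SD, n = 3), and the log2 change was 1.60 (SE 0.24, 95% interval 1.07 to 2.14, limma, adjusted p = 0.00501). It held without any one of the 6 arrays (limma, adjusted p from 0.00544 to 0.0219). The dimmer probe set, 1417986_at, stood near the array median in WT mice, at 21.9, 27.6 and 18.6, and above it in BCS mice, at 45.1, 40.5 and 56.4. It rose by 1.03 on the log2 scale (SE 0.20, limma, adjusted p = 0.0177), which no longer passed when WT replicate 1 or 3 or BCS replicate 3 was left out (limma, adjusted p from 0.0584 to 0.0724).

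The other targets did not pass the test. Hey1, a relative of Hes1, lay at 11.0 to 16.2 in all mice, under the array median, so it is not informative here. Dtx1, a Notch target that encodes a ubiquitin ligase, was also dim, with intensities on 1458643_at of 21.5, 35.2 and 28.3 in WT mice and 21.0, 17.7 and 22.3 in BCS mice. These overlap, since WT replicate 1 lay below BCS replicate 3, and the log2 change of -0.44 did not pass (SE 0.19, 95% interval -0.87 to -0.01, limma, adjusted p = 0.266). On the second Dtx1 probe set, 1425822_a_at, all mice lay between 15.8 and 22.1, around the array median.

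Rbpj, the DNA-binding partner of the cleaved receptors, was measured above the array median on 3 probe sets in every mouse. On the brightest, 1454896_at, the WT mice had 3157, 3259 and 3468 and the BCS mice 3228, 2735 and 2979. The groups overlap, and the log2 change was -0.15 with a 95% interval of -0.37 to 0.07 (limma, adjusted p = 0.491), so a change as large as that of Notch2 lies outside the interval. On 1448957_at the WT mice lay between 630 and 654 and the BCS mice at 617, 694 and 907, and on 1418114_at all mice lay between 94.1 and 119. Their log2 changes were 0.18 (95% interval -0.19 to 0.56) and 0.08 (95% interval -0.31 to 0.47). Lfng, which encodes a fringe glycosyltransferase that modifies the receptors, had on 1420643_at intensities of 24.1 to 27.6 in WT and 25.4 to 36.4 in BCS mice. With a log2 change of 0.23 (SE 0.17, limma, adjusted p = 0.547) it did not pass, and its other probe set, 1449943_at, was under the array median at 7.07 to 9.47.

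**Figure D2:**
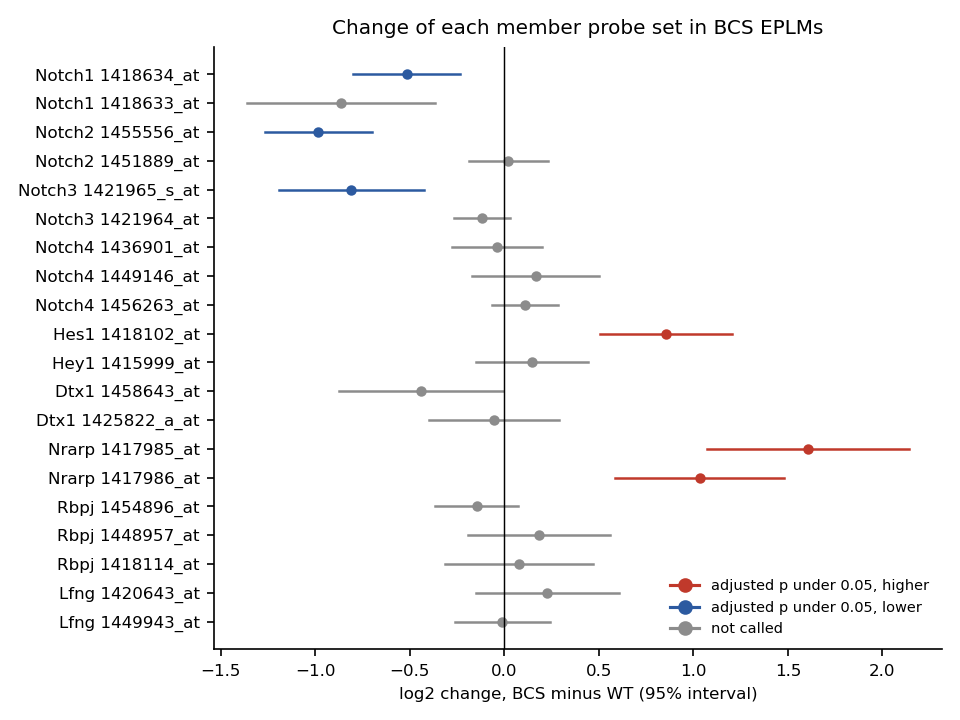
Log2 change (BCS minus WT EPLMs) of the 20 probe sets, points with 95% intervals from limma, red where called higher, blue where called lower and gray where not called. Both Nrarp probe sets and Hes1 lie to the right of 0, and Notch1, Notch2 and one Notch3 probe set to the left.

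The groups did not overlap in 8 of the 20 probe sets, 3 with higher values in BCS mice and 5 with lower ones. Across all probe sets, 12.6% and 11.2% separated the groups in these directions, 23.9% in all. A two-sided exact permutation test of 3 mice against 3 gave p = 0.1 for each of these 8 probe sets, the smallest p that this design allows. With the further demand that group medians be at least 2-fold apart, Hes1 and both Nrarp probe sets stayed called and no receptor did, the Notch2 medians differing by 0.92 on the log2 scale.

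Among the genes measured above the array median, 3 followed the course of Hes1 over the 6 mice most closely, by the mean absolute difference of log2 values after each gene was centred on its own mean. They were Wls, a carrier of Wnt ligands (0.04), Nmi, a partner of STAT proteins (0.05), and Camk2d, a calmodulin kinase subunit (0.07). For Notch1 they were Cxcr4, the chemokine receptor that holds progenitors in the marrow (0.02), Ly6e, a GPI-anchored surface protein (0.03), and the importin gene Ipo9 (0.03). Each set was picked from 9892 candidate genes, so small differences are found for any gene.

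The rest of the pathway was read from 60 further genes, of which 54 had a probe set of their own and the others were not analysed here. Of these, 1 gene rose, Hes5, and 3 fell, Dtx4, Dtx2 and Hes6, each by its brightest probe set. Of all genes read this way, 3.15% were called higher and 4.68% lower, 7.83% in all, so the share of this list is close to the background in both directions. Its median log2 change was -0.03, beside 0.01 for all genes.

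Among the further HES and HEY genes, Hes5, a classical Notch target, had intensities on 1456010_x_at of 349, 389 and 306 in WT mice and 976, 851 and 707 in BCS mice. The groups were far apart, with a log2 change of 1.27 (SE 0.17, limma, adjusted p = 0.00339), and the call held without any one array. Its second probe set, 1423146_at, at or under the array median in WT mice and above it in BCS mice, was called as well, with a log2 change of 0.65 (SE 0.15, limma, adjusted p = 0.0397). Hes6, a family member that can oppose Hes1, had 4020, 3529 and 3623 in WT mice and 2939, 2559 and 2660 in BCS mice. It fell by 0.45 on the log2 scale (SE 0.10, limma, adjusted p = 0.0299). Its second probe set, 1452021_a_at, did not pass, with a log2 change of -0.64 (limma, adjusted p = 0.0686). Hes7, Hey2 and Heyl did not pass. The suffix of the brightest Hes5, Hes6 and Dtx2 probe sets marks probes that may also bind other transcripts.

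Among the regulators that limit receptor activity, the Deltex family genes Dtx4 and Dtx2 fell. Dtx4 had 221, 187 and 259 in WT mice and 115, 58.6 and 69.9 in BCS mice, a log2 change of -1.49 (SE 0.26, limma, adjusted p = 0.0127). Dtx2 had 3753, 3685 and 3769 against 2827, 2785 and 2890, a smaller log2 change of -0.40 in which the mice of each genotype lay close together (SE 0.08, limma, adjusted p = 0.0225). Second probe sets of both genes did not pass, Dtx4 on 1436545_at with a log2 change of -1.11 (limma, adjusted p = 0.255) and overlapping groups, and Dtx2 on 1421720_a_at with -0.34 (limma, adjusted p = 0.295). The other 7 of these 9 genes, among them Numb, Itch and Fbxw7, did not pass. The Hes6 and Dtx2 calls were lost without any array but BCS replicate 1 (adjusted p from 0.0616 to 0.108 and from 0.0595 to 0.0938 from limma), and the Dtx4 call without WT replicate 3 or BCS replicate 3 (0.0551 and 0.0525).

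None of the 5 ligand genes, the 7 genes of receptor glycosylation and ligand endocytosis, the 8 of receptor cleavage, the 7 coactivators or the 8 corepressors was called in limma. At an unadjusted p under 0.05 there were 0, 1, 3, 2 and 1. What share of all genes reached that unadjusted threshold was not computed, so the unadjusted counts have no background beside them. The ligand genes Dll1, Dll3, Dll4, Jag1 and Jag2 were dim throughout, at 9.76 to 34.1. The protease gene Adam10 and the γ-secretase gene Psenen were bright, with log2 changes of -0.17 (limma, adjusted p = 0.229) and -0.08 (limma, adjusted p = 0.696). Other cleavage genes had larger changes that did not pass either. Ncstn was higher by 0.85 (limma, adjusted p = 0.0714) and Aph1a lower by 0.35 (limma, adjusted p = 0.17) on the log2 scale, each without overlap of the groups. Of 5 measured genes that act downstream of Notch in the T lineage, none was called, and 2 had an unadjusted p under 0.05. Gata3 stayed under the array median in all mice. Myc had 2288, 1639 and 2442 in WT mice and 2698, 5284 and 4696 in BCS mice, with BCS replicate 1 close to the WT mice. Its log2 change of 0.96 (SE 0.25) did not pass (limma, adjusted p = 0.0628), and it was 1.25 (limma, adjusted p = 0.00816) without that mouse.

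**Figure D3:**
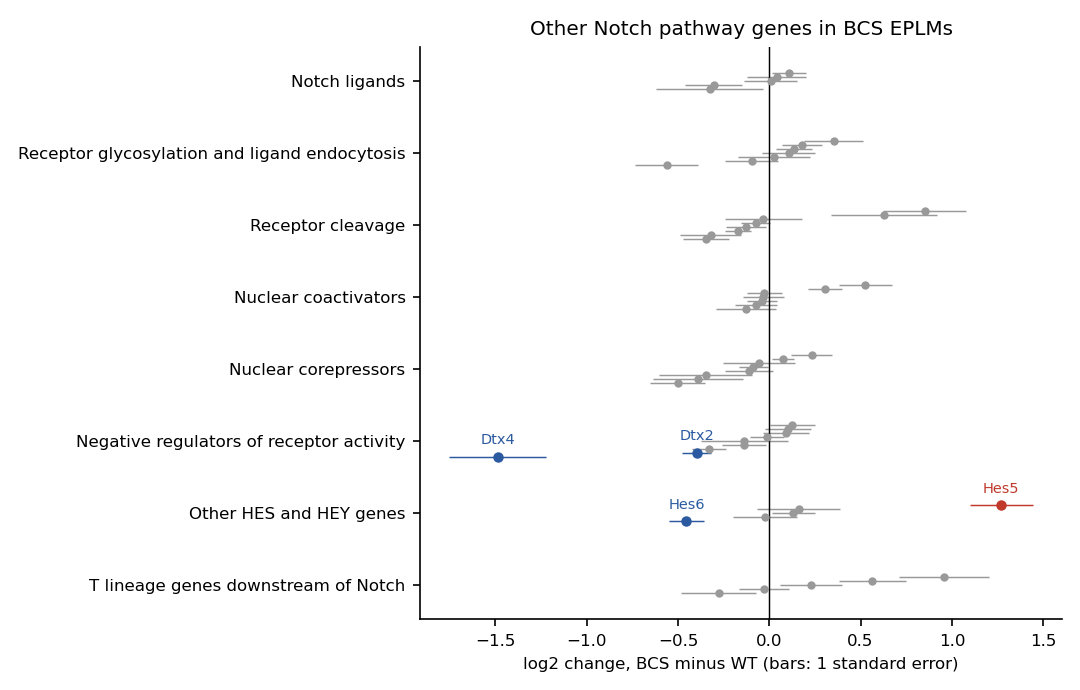
Log2 change (BCS minus WT EPLMs, horizontal axis) of 54 further Notch pathway genes by role, points with 1 standard error on each side, each gene by its brightest probe set; the 4 called genes are named. Hes5 is the called gene to the right of 0, and Hes6, Dtx2 and Dtx4 are those to the left.

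Markers of other cells moved between the genotypes too. The plasmacytoid dendritic cell list held 8 measured genes, of which 7 fell, among them Siglech and Ccr9, and its summed intensity was 86485 to 94315 in WT and 42252 to 55902 in BCS mice. The largest part of this sum was Irf8, at 38751 to 39993 in WT and 23426 to 29268 in BCS mice. All 8 genes lay above the array median in every mouse. Of 9 markers of committed B cells 6 rose, and their sum was 35748 to 62523 in WT and 83877 to 91358 in BCS mice. Of 9 T cell markers, Thy1 and Lat rose and Cd8a fell, and the sum was 745 to 1589 in WT and 1993 to 2693 in BCS mice. Thy1 contributed 401 to 898 in WT and 1438 to 1917 in BCS mice. The log2 change was negative for 6 of the 9 genes, with a median of -0.26. The CD3 genes, which define T cells, were highest in WT replicate 2, where Cd3d reached 96.4, Cd3e 33.0 and Cd3g 131, and in the other 5 mice they did not pass 38.7, 24.3 and 36.8. The part of these cells in the Notch receptor and target values was not tested.

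WT replicate 2 stood apart in its megakaryocyte markers and had the highest myeloid and NK cell sums. Among the WT mice it also had the highest sum of committed B cell markers (62523). Its summed erythroid and megakaryocyte markers reached 3925, against 233 to 467 in the other 5 mice. Most of that came from the megakaryocyte genes Pf4 (2805) and Vwf (600). The erythroid genes Klf1, Epor and Hba-a1 were not highest in this mouse. The myeloid sum was 71246, against 7952 to 47976 in the others, of which BCS replicate 1 was the lowest. Without this mouse Notch2 was still called lower (limma, adjusted p = 0.00975), and the log2 changes were 0.95 for Hes1 (limma, adjusted p = 0.0205) and 1.80 for Nrarp on its brighter probe set (limma, adjusted p = 0.00544). Notch1 on its bright probe set (limma, adjusted p = 0.131) and Notch3 (limma, adjusted p = 0.0609) lost their calls without it, which left 1 of the 20 probe sets lower. Of 9 NK cell markers 2 fell, of 10 myeloid markers 1 fell, and of 8 erythroid and megakaryocyte markers none was called in limma. At an unadjusted p under 0.05 there was 1 of these 8, again without a background share. Cd14, Cebpa and Hba-a1 stayed under the array median in every mouse. The NK cell sum was 8257 to 14907 in WT mice, with WT replicate 2 the highest, and 1467 to 4254 in BCS mice. Klrd1 alone contributed 6901 to 8110 in WT and 1087 to 2430 in BCS mice. The log2 change was negative for all 9 NK cell markers, but 7 of them were not called. Ptprc, Kit and Cd93, the genes of the sorting markers B220, c-kit and CD93, were read as RNA, which does not measure the sorted surface proteins. All 3 lay far above the array median in every mouse, and Ptprc fell by 0.40 on the log2 scale (SE 0.07, limma, adjusted p = 0.0101). Pou2af1, the mouse gene for OBF1, had 6278, 7250 and 3400 in WT mice and 10784, 10858 and 10323 in BCS mice, a log2 change of 0.99 (SE 0.23, limma, adjusted p = 0.0436) whose call was lost without WT replicate 1 or any BCS replicate (0.0599 to 0.132). On the array the signal thus lay well above the array median in WT mice too. The paper's qPCR, in contrast, did not detect endogenous OBF1 RNA in WT EPLMs and found it raised in BCS EPLMs. The reason for this difference between array and qPCR was not tested. Whether the Pou2af1 probe set also reads the human transgene is not known.

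**Figure D4:**
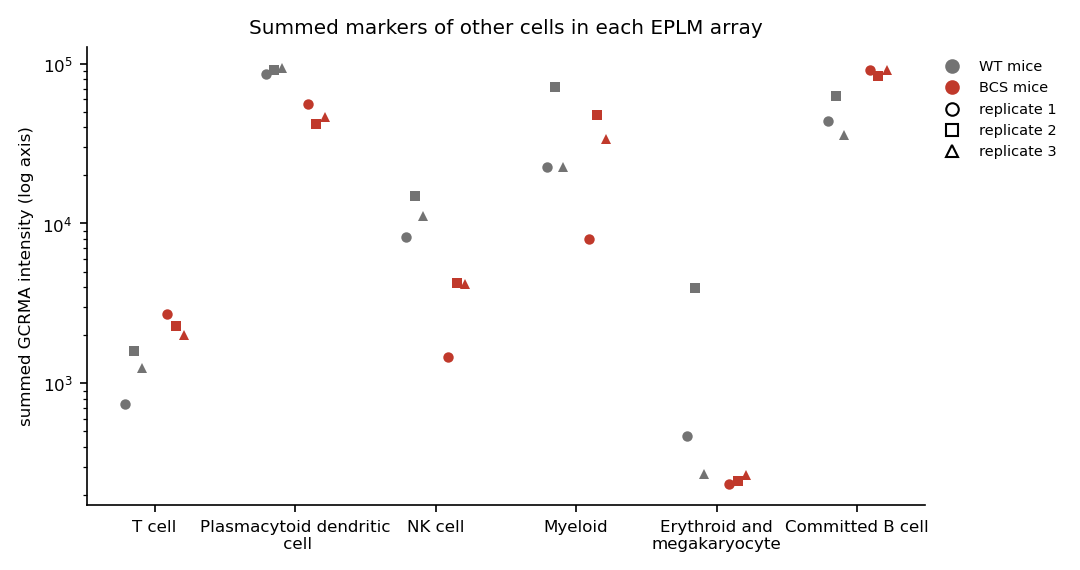
Summed GCRMA intensity (vertical log axis) of markers of 6 kinds of cells in each of the 6 EPLM arrays, gray for WT and red for BCS mice, with circles, squares and triangles for replicates 1, 2 and 3. The plasmacytoid dendritic cell sums of the BCS mice lie below those of the WT mice, and their B cell sums lie above. WT replicate 2 stands apart in the summed erythroid and megakaryocyte markers, mostly through the megakaryocyte genes Pf4 and Vwf.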

How the data were processed

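Each Affymetrix mouse GeneChip carried RNA of sorted EPLMs from 1 mouse. The authors normalized the arrays with GCRMA, per the labels (version not given in the sources used here), and deposited intensities on a linear scale. The labels name 1-cycle labeling and the paper's methods another kit. All 6 EPLM columns have the same distribution, with a median of 20.0. The 7 large PreB columns were not used, because their mean log2 levels correlated with those of EPLMs with r = 0.0944 across 45037 probe sets and with r = 0.978 across the 64 control features, so they do not follow the probe set names. Features are not independent replicates.

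Log2 of the intensity plus 1 was fitted with limma 3.58.1 in R 4.3.3 (lmFit, eBayes with an intensity trend), for BCS minus WT without covariates, and p was adjusted over 45037 probe sets (Benjamini-Hochberg, threshold 0.05). The fit was tested on simulated data. Of the probe sets 34945 have 1 symbol, 932 several and 9160 none, and symbols were updated through RefSeq gene IDs. A gene outside the 10 is read by its brightest probe set.

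The members and lists were chosen with earlier results of these data known. Named are all members, up to 3 called genes of each pathway list, 3 genes most like Hes1 and Notch1, the gate genes and Pou2af1. Genes named beyond this rule (Myc, Adam10, Psenen, Ncstn, Aph1a and single markers) were chosen after their values were seen. The methods' t-test, other variance models, a filter, scalings, an offset of 16, a floor, array weights, fold and p thresholds, a replicate block and leaving out each array were tried. Same-numbered WT and BCS arrays shared little deviation from their group means (r from -2e-04 to 0.0675). Differently numbered arrays were not set beside them, so whether the numbers pair the mice is not known. The number of arrays limits the precision. Coordinates are given for RefSeq promoter windows alone.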

Additional observations from a re-analysis of the deposited data

How the results depend on the processing

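For 28 probe sets named above, 496 comparisons with other settings were made. Of these, 419 kept the side of the threshold, 73 lost a call, 4 gained one and 0 called changes turned direction. Only probe sets called in the main fit can lose a call, and many, among them all of Notch4, Rbpj and Kit, were not called. The called ones lost their call in 1 of 18 settings (Hes5) up to 10 of 18 (Notch1 on its bright probe set, for example). With the methods' t-test and adjusted p, 0 member probe sets were higher and 0 lower (3 and 4 at an unadjusted p under 0.05), 0 pathway genes were higher and 1 lower (5 and 7 unadjusted), and 114 of all probe sets were higher and 153 lower. The share of all probe sets under the unadjusted 0.05 was not computed, so those counts have no background beside them. With the unadjusted p of this t-test under 0.01 and medians 2-fold apart, 3 member probe sets were higher and 0 lower, 1 pathway gene was lower, and 296 and 568 of all passed. With limma and medians 2-fold apart, 0 member probe sets and 1 pathway gene were lower, and 415 of all were higher and 741 lower, where 1007 and 1465 passed without that demand. At an adjusted p under 0.01, 1 member probe set was higher (Nrarp) and 1 lower (Notch2), 0 pathway genes were lower, and 363 and 694 of all passed. With intensities floored at the array median, 0 member probe sets were higher and 0 lower, and 354 and 533 of all passed. Bright Notch2 kept a log2 change of -0.98 with this floor but had an adjusted p of 0.0542 from limma. Hes1 kept 0.86 (limma, adjusted p = 0.0624). The cause of the lost calls was not tested. Pathway genes higher became 4 with the filter on dim probe sets, 2 with array weights and 2 with the mean of a gene's probe sets. Leaving out 1 array gave 1 to 3 member probe sets higher and 1 to 3 lower, 1 to 4 pathway genes higher and 0 to 3 lower, and 517 to 926 of all higher and 875 to 1315 lower. With the replicate block, 2 member probe sets were higher, 3 lower and 741 and 1179 of all passed; the dimmer Nrarp probe set (adjusted p = 0.0549 from limma) and Dtx2 (0.0663) lost their calls and Cd93 gained one (0.0441). Dim probe sets, among them all of Notch4 and Hey1, are limited by their low signal over background.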
